A study of Mus musculus with 16 samples.

Results

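Livers of mice given cadmium chloride (CdCl2) were compared with livers of control mice at the level of whole-tissue poly(A) RNA. The 8 livers, of 16 in the series, were 4 from control mice (mouse numbers 27, 28, 29 and 30) and 4 from Cd mice (mouse numbers 1, 2, 5 and 6), and they were taken as the labels name them. All were male wild-type C57BL/6J mice aged 8 to 12 weeks per the study's methods. A figure legend of the study has the mice 8 weeks old at the start of the 3 months of selenomethionine feeding. Tissues were collected at the end of treatment, so that age is not the age at collection. No separate age is given for mice without the diet. The Cd mice received 1.25 mg/kg CdCl2 by daily intraperitoneal injection for the final 7 days, and no vehicle injection of the controls is stated. The other 8 livers came from mice fed 2 ppm selenomethionine for 3 months, 4 without CdCl2 (Se) and 4 with it (Cd+Se). The description covers the 10483 protein-coding genes, of 22005 listed, whose mean over all 16 livers was at least 1 TPM.

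Cadmium is a metal without a known nutritional role that reaches the liver early after absorption or injection. Hepatocytes bind it with metallothioneins, small cysteine-rich proteins whose genes are switched on by metals through the factor MTF-1. Hepatocytes also make bile acids, glucose, urea, heme and most plasma proteins, and resident macrophages called Kupffer cells line the liver sinusoids beside them. Inflammation turns the liver towards acute-phase proteins, which are secreted into plasma.

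The values are TPM (transcripts per 1000000), which sum to 1000000 in each library, so a gain by a few abundant genes lowers the others. Median log2(TPM + 1) over the tested genes was 3.11 to 3.20 in the controls and 3.12, 3.08, 2.68 and 2.90 in Cd mice 1, 2, 5 and 6. The libraries of Cd mice 5 and 6 thus stood apart. Mitochondrially encoded protein genes took 16.2 to 17.2% of TPM in the controls, 12.6% and 12.4% in Cd mice 1 and 2, and 21.7% and 17.6% in Cd mice 5 and 6. Pseudogenes took 9.17 to 9.89% in the controls and 10.7 to 13.9% in the Cd mice. The rank correlation over genes was 0.967 to 0.973 between controls, 0.962 to 0.972 between Cd mice and 0.917 to 0.951 between the groups. Read depth is unknown. Hepatocyte markers summed to 81250 to 106600 TPM in the controls and 56910 to 91060 TPM in the Cd mice, so both groups carried the labelled tissue.

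**Figure D1:**
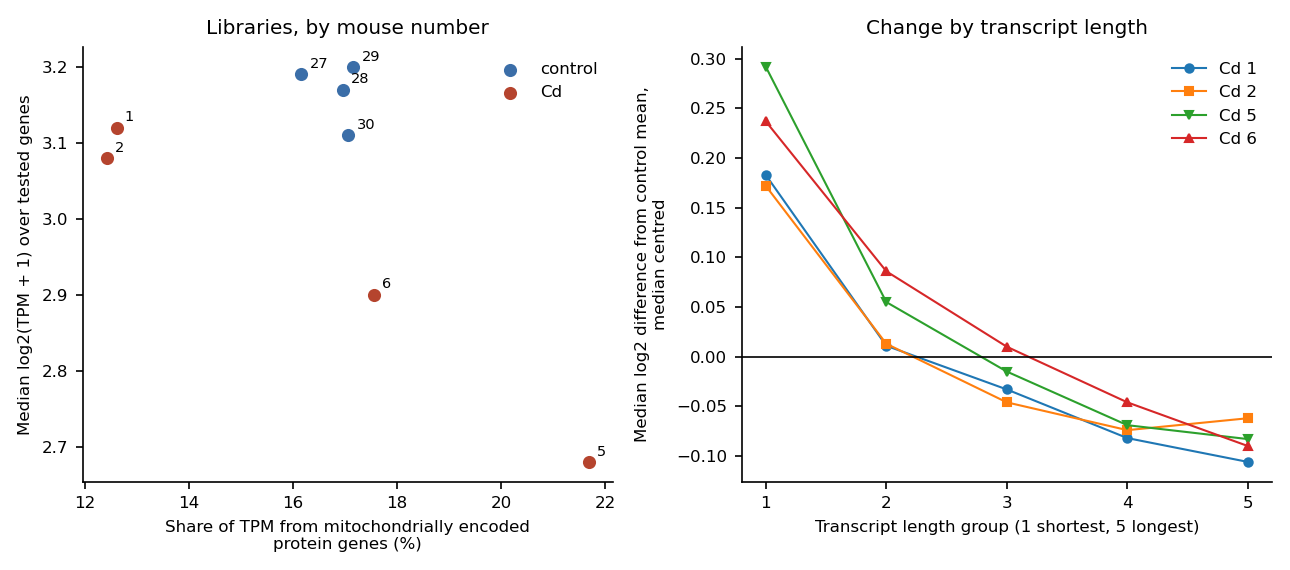
Left, median log2(TPM + 1) of each library against its share of TPM from mitochondrially encoded protein genes (%), with mouse numbers beside the points. Right, median difference from the control mean (log2, median centred) of each Cd mouse in 5 equal groups of protein-coding genes ordered by transcript length. The shortest group lies above 0 in all 4 Cd mice and the longest below 0.

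Because the medians differed, each gene was tested with TPM as deposited and again after setting every library to the same median. A gene is said to have risen or fallen only where limma called it in the same direction both ways, at a Benjamini-Hochberg adjusted p under 0.05 over all 11766 genes tested. Changes are on the log2(TPM + 1) scale, which understates those of low genes. As deposited, 519 protein-coding genes (4.95%) were higher in Cd and 2858 (27.3%) were lower. After centring, 1881 (17.9%) were higher and 1761 (16.8%) lower. Both ways, 519 rose (4.95%) and 1761 fell (16.8%), and these shares are the background for every count below. Centring thus removed no rise called as deposited, and every fall called after centring was also called as deposited. Each adjusted p printed below is the one as deposited unless said otherwise. After centring that of a fall could be larger, as for Onecut1 (0.027 as deposited and 0.0415 after centring). Leaving out Cd mice 5 and 6 gave 646 and 1106. Where the call of a gene as deposited ended without Cd mice 5 and 6, its adjusted p without them is given beside it, or in a later sentence for genes named without values. The 4 Cd mice lay above all 4 controls in both scalings for 582 genes (5.55%) and below them for 2036 (19.4%). The median change over all protein-coding genes was -0.20 as deposited and 0.02 after centring.

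Metallothionein genes Mt1 and Mt2 had the largest log2 fold changes of all protein-coding genes tested. Mt1 stood at 221, 50.9, 96.8 and 94.0 TPM in the controls and 4899, 3178, 4179 and 4009 TPM in the Cd mice. Mt2 stood at 150.1, 26.4, 49.5 and 50.6 TPM in the controls and 4493, 3082, 3875 and 2433 TPM in the Cd mice. The lowest Cd mouse lay far above the highest control for both genes, and control mouse 27 was the highest control for both genes. The means were 35.1-fold (Mt1, log2 fold change 5.30 ± 0.48 (SE), adjusted p = 1.86e-05, 5.52 after centring) and 50.2-fold (Mt2, log2 fold change 5.88 ± 0.66 (SE), adjusted p = 5.74e-05, 6.10 after centring) higher. Both genes lie side by side on mouse chromosome 8 (GRCm38, Mt2 at chr8:94172664-94173568 and Mt1 at chr8:94179082-94180327, both on the plus strand). The files give no build that fits the mouse identifiers, so these positions come from GENCODE.

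The sequences around both starts are shown because metals are known to act through them. Each runs from 250 bases before to 50 bases after the RefSeq start on the plus strand (GRCm38.p6, Mt1 chr8:94178839-94179138, Mt2 chr8:94172368-94172667). RefSeq and GENCODE place the starts differently, and the Mt2 window ends just past the GENCODE start at 94172664. Capitals mark the core of the metal response element to which MTF-1 binds, searched as TGCACNC and TGCGCNC on both strands with overlaps allowed.
Mt1: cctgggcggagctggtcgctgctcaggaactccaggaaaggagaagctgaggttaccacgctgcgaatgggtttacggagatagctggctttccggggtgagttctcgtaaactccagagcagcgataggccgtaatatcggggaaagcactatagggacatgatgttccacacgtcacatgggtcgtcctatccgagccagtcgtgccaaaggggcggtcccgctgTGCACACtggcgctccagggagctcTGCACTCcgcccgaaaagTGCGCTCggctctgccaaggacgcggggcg
Mt2: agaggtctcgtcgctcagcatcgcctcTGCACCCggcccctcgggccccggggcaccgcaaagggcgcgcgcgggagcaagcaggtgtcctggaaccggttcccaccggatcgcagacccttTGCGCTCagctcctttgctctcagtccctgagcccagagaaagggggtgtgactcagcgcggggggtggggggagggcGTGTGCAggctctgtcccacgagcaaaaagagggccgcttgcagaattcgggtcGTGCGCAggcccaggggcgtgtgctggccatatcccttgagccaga
The Mt1 window held 3 cores and the Mt2 window 4. Among 32851 promoters of the same length, 25.7% held at least 1 core, 1.97% at least 3 and 0.517% at least 4. A match describes letters and is not a measured site.

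**Figure D2:**
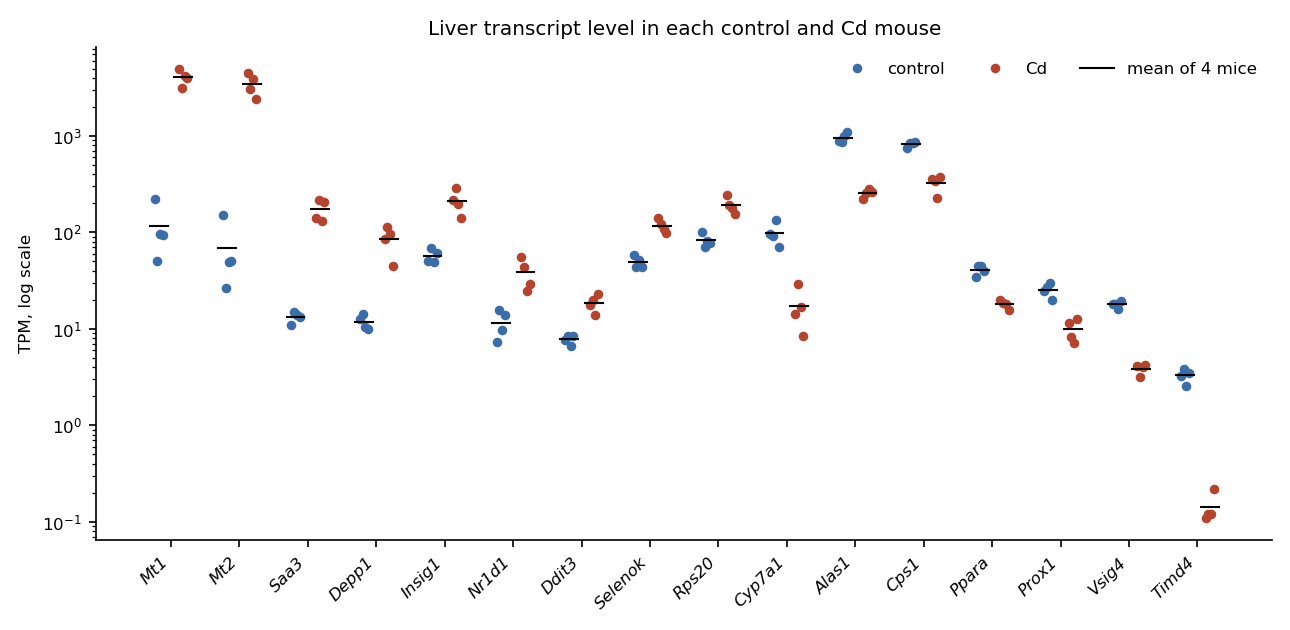
TPM of 16 genes in each of the 4 control and 4 Cd mice, on a log scale, with the mean of each group as a black line. In all 16 genes the 4 Cd mice lie wholly above or wholly below the 4 controls, and Mt1 rises from 50.9 to 221 TPM in the controls to 3178 to 4899 TPM in the Cd mice. The genes were picked for display, several under a rule that required groups without overlap, so this separation is not a result. Of all protein-coding genes tested, 5.55% lay wholly above and 19.4% wholly below in both scalings.

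Among 20 tested metallothionein and zinc transporter genes, Mt1 and Mt2 rose and 5 zinc or manganese carriers fell, with a list median of -0.25 as deposited and -0.03 after centring. Slc30a10, a manganese exporter, read 11, 10.9, 13.8 and 9.26 TPM in the controls and 5.68, 4.69, 1.91 and 3.71 TPM in the Cd mice. The groups did not overlap, with Cd mouse 5 lowest (log2 fold change -1.35 ± 0.38 (SE), adjusted p = 0.0154, -1.13 after centring). Slc39a14, a carrier of zinc, manganese, iron and cadmium into hepatocytes, stood at 95.7, 79.6, 80.8 and 82.1 TPM in the controls and 54.8, 52.9, 34.9 and 46.3 TPM in the Cd mice. All Cd mice were lower here too (log2 fold change -0.84 ± 0.20 (SE), adjusted p = 0.00541, -0.62 after centring). Without Cd mice 5 and 6 the adjusted p was 0.161 for Slc30a10 and 0.0722 for Slc39a14. Slc39a1, Slc39a7 and Slc39a9 were the other members that fell.

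Heme synthesis showed its widest change at its rate-limiting step. Alas1, the enzyme of that step in liver, read 881, 862, 999 and 1106 TPM in the controls and 222, 258, 282 and 262 TPM in the Cd mice. The groups stood far apart, 3.76-fold lower by mean in Cd (log2 fold change -1.91 ± 0.24 (SE), adjusted p = 1.61e-04, -1.69 after centring). Cpox, a later enzyme of heme synthesis, fell from 52.1 ± 5.35 to 25.4 ± 2.88 TPM (mean ± SD, n = 4, log2 fold change -1.01 ± 0.15, adjusted p = 3.39e-04). Hmox1, which breaks heme down, stood at 10.2, 10.9, 8.08 and 10.2 TPM in the controls and 19.6, 17.7, 15.8 and 18.9 TPM in the Cd mice and rose 1.83-fold by mean (log2 fold change 0.81 ± 0.25 (SE), adjusted p = 0.0211, 1.03 after centring). Its adjusted p was 0.0804 without Cd mice 5 and 6. Ppox, another late enzyme of the pathway, rose by 0.48 ± 0.17 (adjusted p = 0.0439), with overlapping groups. Of 12 heme genes tested, 2 rose and 2 fell.

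Of 26 iron genes, 4 rose and 3 fell. The risers were secreted carriers of iron, hemoglobin or heme: Trf (transferrin, log2 fold change 0.69 ± 0.16 (SE), adjusted p = 0.00491, 0.91 after centring), Hp (haptoglobin, log2 fold change 0.82 ± 0.26, adjusted p = 0.0284), Hpx (hemopexin, log2 fold change 0.77 ± 0.28, adjusted p = 0.0471) and Lcn2 (a siderophore-binding protein). Trf stood at 9789, 8380, 9830 and 8938 TPM in the controls and 15410, 15040, 14020 and 14840 TPM in the Cd mice. Trf levels did not overlap, whereas Hpx levels did, since control mouse 27 reached 3357 TPM and Cd mouse 1 only 3168 TPM. Lcn2 varied more, with 55.0, 3.71, 5.28 and 13.2 TPM in the controls and 54.8, 104, 175 and 168 TPM in the Cd mice, and control mouse 27 lay level with Cd mouse 1 (log2 fold change 3.21 ± 0.86 (SE), adjusted p = 0.0112, 3.43 after centring). With Cd mice 5 and 6 left out the adjusted p was 0.197 for Hp, 0.257 for Hpx and 0.121 for Lcn2. Steap4, a ferric and cupric reductase, Tmprss6, a protease that restrains hepcidin, and Aco1, an iron-sensing RNA-binding protein, fell. Steap4 went from 75.9 ± 16.2 to 37.2 ± 7.96 TPM (log2 fold change -1.01 ± 0.22 (SE), adjusted p = 0.00383, -0.79 after centring).

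Antioxidant enzymes rose in a few members. In the list of superoxide dismutases, catalase, peroxiredoxins and thioredoxins, 4 of 19 rose and none fell, with a median of 0.08 as deposited and 0.30 after centring. Txn1 (thioredoxin) read 163, 139, 166 and 155 TPM in the controls and 236, 225, 211 and 201 TPM in the Cd mice, and the groups did not overlap (log2 fold change 0.49 ± 0.11 (SE), adjusted p = 0.00358, 0.71 after centring). Sod1, the cytosolic dismutase (log2 fold change 0.38 ± 0.12, adjusted p = 0.0235), and Sod2, the mitochondrial one (log2 fold change 0.42 ± 0.12, adjusted p = 0.0176), rose by less. Prdx5, a peroxiredoxin, rose by 0.27 ± 0.10 (adjusted p = 0.0493), with Cd mouse 6 within the control range. After a correction for transcript length and GC content the list gave 3 rises and 1 fall. Txn1 (adjusted p = 0.0638) and Prdx5 lost their calls under that correction.

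Of 30 targets of NRF2, the factor that answers electrophilic stress, Hmox1 and Gclm rose and none fell as deposited or after centring. After centring alone 10 were higher. Gclm, a subunit of the enzyme that starts glutathione synthesis, read 101, 97.0, 104 and 97.6 TPM in the controls and 175, 164, 142 and 140.2 TPM in the Cd mice and did not overlap (log2 fold change 0.63 ± 0.19 (SE), adjusted p = 0.0205, 0.85 after centring). Among 22 glutathione S-transferases, Mgst1 (log2 fold change 0.33 ± 0.09, adjusted p = 0.0139, adjusted p = 0.0571 without mice 5 and 6) and Gstp2 (log2 fold change 1.09 ± 0.32, adjusted p = 0.0168, adjusted p = 0.055 without mice 5 and 6) rose while Gstt3 (log2 fold change -0.73 ± 0.17, adjusted p = 0.00569) and Gstz1 (log2 fold change -0.60 ± 0.12, adjusted p = 0.00199) fell. Reads of Gstp2 and its near copy Gstp1 may be shared. Under the length and GC correction Mgst1 and Gstp2 lost their calls, and the transferase list gave no rise and 3 falls.

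Selenoproteins moved both ways, with 3 of 19 higher and 3 lower. Selenok, a membrane protein of the endoplasmic reticulum, stood at 57.8, 43.4, 51.6 and 43.4 TPM in the controls and 141, 123, 108 and 98.3 TPM in the Cd mice. It rose 2.4-fold by mean without overlap (log2 fold change 1.24 ± 0.17 (SE), adjusted p = 2.30e-04, 1.46 after centring). Selenop, the plasma selenium carrier made by hepatocytes, read 3616, 3615, 3985 and 3490 TPM in the controls and 2952, 2627, 1953 and 2868 TPM in the Cd mice and fell (log2 fold change -0.52 ± 0.13 (SE), adjusted p = 0.00809, -0.30 after centring). Selenow and Gpx4 rose, and Selenot and Selenoi fell.

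Acute-phase transcripts were higher in the Cd livers, but not evenly. Of 26 acute-phase genes 8 rose and 2 fell, and the list median was 0.35 as deposited and 0.57 after centring. Saa3, an amyloid protein of inflamed tissue, stood at 11, 15.1, 13.8 and 13.2 TPM in the controls and 141, 216, 131 and 206 TPM in the Cd mice. The groups lay 13.1-fold apart by mean (log2 fold change 3.58 ± 0.44 (SE), adjusted p = 1.18e-04, 3.8 after centring). Saa2, a plasma amyloid protein, was far more variable, with 3310, 169, 35.2 and 355 TPM in the controls and 1003, 2848, 6541 and 4326 TPM in the Cd mice. Control mouse 27 exceeded Cd mice 1 and 2 (log2 fold change 3.36 ± 1.24, adjusted p = 0.0496, adjusted p = 0.293 without mice 5 and 6). Its close copy Saa1 did not pass the test (log2 fold change 2.71 ± 1.13, adjusted p = 0.0792), and reads may be shared between the pair. In the fit lacking Cd mice 5 and 6 the list held 1 riser. The control with the highest Saa2, Lcn2 and Hp was also mouse 27, which was highest for Mt1 and Mt2.

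Itih4, Apcs and Serpina3g were the other acute-phase risers besides Hp, Hpx, Lcn2, Saa2 and Saa3. Serpina3m, a plasma protease inhibitor of a duplicated cluster, went the other way, with 340.5, 262, 304 and 258 TPM in the controls and 122, 77.8, 72.4 and 106 TPM in the Cd mice. All Cd mice were below all controls (log2 fold change -1.63 ± 0.28 (SE), adjusted p = 7.80e-04, -1.41 after centring). Fga, a chain of fibrinogen, also fell, with 2494, 2079, 2132 and 2198 TPM in the controls and 1604, 1659, 929 and 1444 TPM in the Cd mice (log2 fold change -0.69 ± 0.17 (SE), adjusted p = 0.00737, -0.47 after centring, adjusted p = 0.0654 without mice 5 and 6). Of 14 negative acute-phase and transport proteins, which often drop in inflammation, Trf and Fetub (fetuin B) rose and none fell.

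No coagulation gene of 31 rose and 5 fell (16.1%, near the background share of 16.8%). Besides Fga these were F5 (log2 fold change -0.69 ± 0.14, adjusted p = 0.0022), F7, F8 (log2 fold change -0.81 ± 0.20, adjusted p = 0.00731, adjusted p = 0.0532 without mice 5 and 6) and F13b (log2 fold change -0.72 ± 0.16, adjusted p = 0.00427), which encode clotting factors. Of 27 complement genes 5 fell (18.5%) and 2 rose (7.41%), also near the background shares. C6, a component of the membrane attack complex, fell from 126 ± 6.71 to 72.2 ± 20.8 TPM (mean ± SD, n = 4, log2 fold change -0.84 ± 0.20, adjusted p = 0.00541, adjusted p = 0.0668 without mice 5 and 6), and the recognition subunits C1qa, C1qb and C1qc fell with the macrophage markers described next. Vtn (vitronectin) and Mbl1 (a mannose-binding lectin) rose. The 20 tested major urinary protein genes, near-identical copies whose reads cannot be assigned with certainty, neither rose nor fell, and summed to 81970 to 144300 TPM in the controls and 96740 to 123800 TPM in the Cd mice.

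Kupffer cell markers fell in a larger share than any other list described here. All 17 were tested, of which 11 fell and none rose (64.7% against 16.8% of all protein-coding genes), with a median of -0.97 as deposited and -0.75 after centring. Cd163, a receptor for hemoglobin bound to haptoglobin, read 6.23, 6.52, 4.95 and 6.89 TPM in the controls and 0.06, 0.36, 0.29 and 0.14 TPM in the Cd mice. Vsig4, a complement receptor of tissue macrophages, read 18.2, 18.1, 16.2 and 19.3 TPM in the controls and 4.07, 3.18, 4.03 and 4.21 TPM in the Cd mice. Timd4, a phosphatidylserine receptor, read 3.21, 3.84, 2.56 and 3.52 TPM in the controls and 0.11, 0.12, 0.12 and 0.22 TPM in the Cd mice. None of these 3 genes overlapped between groups (Cd163 log2 fold change -2.56 ± 0.24 (SE), adjusted p = 1.86e-05, -2.34 after centring, Vsig4 log2 fold change -1.96 ± 0.22 (SE), adjusted p = 5.25e-05, -1.74 after centring, Timd4 log2 fold change -1.90 ± 0.16 (SE), adjusted p = 1.42e-05, -1.68 after centring). Clec4f, a lectin of Kupffer cells, fell from 42.7 ± 4.04 to 17.1 ± 4.54 TPM (log2 fold change -1.31 ± 0.27, adjusted p = 0.00281), and Marco, a scavenger receptor, fell from 8.65 ± 1.08 to 2.76 ± 1.12 TPM (log2 fold change -1.40 ± 0.28, adjusted p = 0.00223). Adgre1, Csf1r, Folr2, C1qa, C1qb and C1qc completed the 11. The list summed to 331 to 397 TPM in the controls and 166 to 243 TPM in the Cd mice, and 11 members also fell without Cd mice 5 and 6.

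Lyz2 (lysozyme), a marker shared by many macrophages, stood at 41.7, 57.6, 42.3 and 50.05 TPM in the controls and 48.1, 47.9, 35.5 and 53.5 TPM in the Cd mice, with overlapping groups (log2 fold change -0.05 ± 0.18, adjusted p = 0.843). Of 20 markers of monocytes and recruited macrophages 14 passed the TPM minimum, of which 5 rose (S100a4, S100a6, Ly6c2, Ccr2 and Lgals3) and none fell. Ly6c2 and Ccr2 averaged under 1 TPM in the controls, and genes this low could pass through the Cd livers alone, so this count is not evidence of direction. Lgals3, a galectin, rose from 2.60 ± 0.10 to 5.75 ± 1.19 TPM (log2 fold change 0.89 ± 0.21, adjusted p = 0.00588), and Ccr2, the receptor for Ccl2, rose from 0.73 ± 0.37 to 1.54 ± 0.42 TPM (log2 fold change 0.56 ± 0.18, adjusted p = 0.0269). That list summed to 142 to 172 TPM in the controls and 134 to 199 TPM in the Cd mice, so the sums overlapped, and 2 members rose without Cd mice 5 and 6. In bulk tissue, fewer cells of a type and less RNA per cell cannot be told apart.

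**Figure D3:**
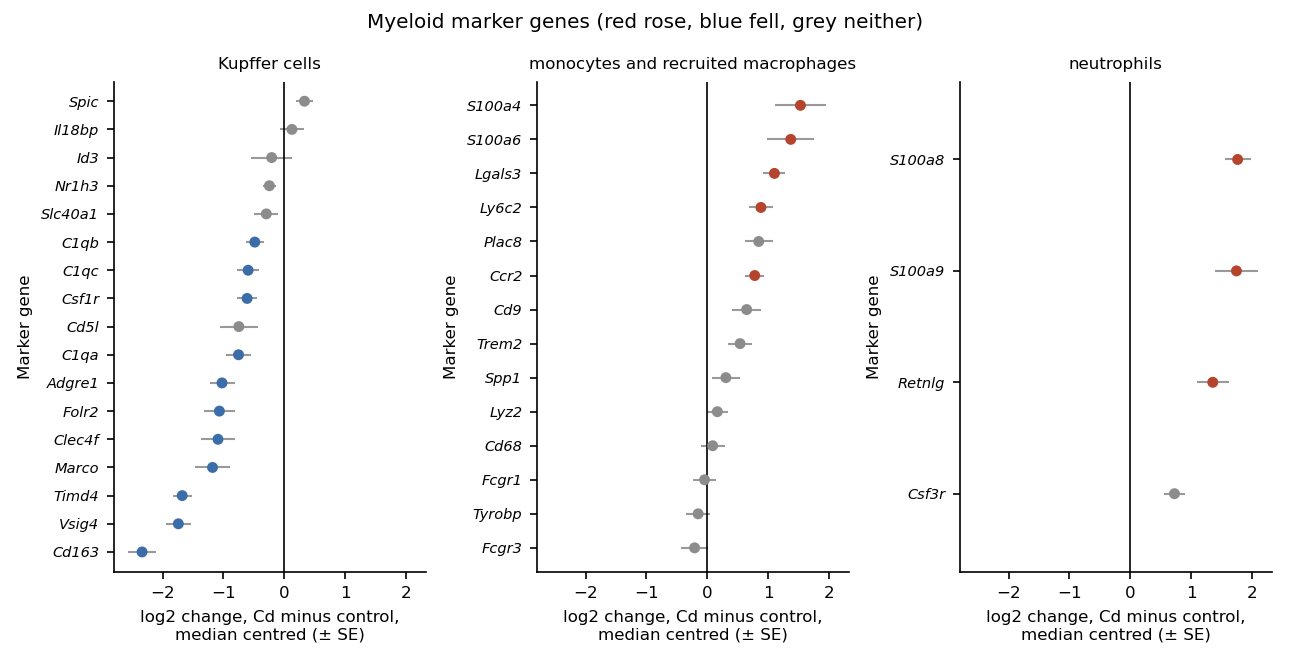
Change of each tested marker gene of Kupffer cells, monocytes and recruited macrophages, and neutrophils, in Cd minus control on the median-centred log2(TPM + 1) scale, with SE. Blue points fell, red points rose and grey points did neither, and 11 of 17 Kupffer cell markers are blue.

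Neutrophil markers were low in every liver, and only 4 of 16 passed the TPM minimum. S100a8, an alarmin of neutrophils, read 6.2, 3.28, 3.0 and 2.63 TPM in the controls and 12.6, 15.6, 13.2 and 9.19 TPM in the Cd mice, and its partner S100a9 read 9.32, 2.08, 6.94 and 12.9 TPM in the controls and 22.5, 22.3, 19.6 and 20.6 TPM in the Cd mice. Both were higher in every Cd mouse than in any control (S100a8 log2 fold change 1.55 ± 0.22 (SE), adjusted p = 2.90e-04, 1.77 after centring, S100a9 log2 fold change 1.53 ± 0.34 (SE), adjusted p = 0.00378, 1.75 after centring). Retnlg rose as well, whereas Csf3r did not pass (log2 fold change 0.51 ± 0.19, adjusted p = 0.0523). A low gene could pass the minimum through the Cd livers alone, so this count is not evidence of direction. The 16 genes summed to 7.69 to 19.2 TPM in the controls and 37.2 to 44.9 TPM in the Cd mice, and S100a8 and S100a9 made up most of the sum in both groups.

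Of 29 chemokine and alarmin genes 16 passed the TPM minimum, of which 8 rose and 1 fell. As with the neutrophil markers, a low gene could pass through the Cd livers alone (Ccl2 and Cxcl2 averaged under 1 TPM in the controls), so this count is not evidence of direction either. Ccl2, which draws monocytes, stood at 0.07, 1.14, 0.58 and 0.21 TPM in the controls and 4.14, 4.54, 4.53 and 4.44 TPM in the Cd mice. Every Cd mouse was above 4 TPM and no control above 1.14 TPM (log2 fold change 1.90 ± 0.32 (SE), adjusted p = 6.99e-04, 2.12 after centring). Cxcl1, which draws neutrophils, stood at 9.94, 5.41, 4.15 and 36.1 TPM in the controls and 38.1, 45.1, 44.9 and 45.4 TPM in the Cd mice. Control mouse 30 reached nearly the Cd levels (log2 fold change 2.04 ± 0.61 (SE), adjusted p = 0.0195, 2.26 after centring), and without Cd mice 5 and 6 the adjusted p was 0.108. Cxcl2, Cxcl9 and Cxcl10 also rose. Cxcl13, a B cell chemokine, read 2.22, 3.90, 3.8 and 3.64 TPM in the controls and was listed at 0 in all 4 Cd mice. It was called lower (adjusted p = 7.17e-04), and no fold is given against a listed 0.

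Interferon-stimulated and NF-kB genes gave few calls. Of 41 interferon-stimulated genes 1 rose and 3 fell. Isg15, a ubiquitin-like modifier, rose (log2 fold change 0.70 ± 0.22, adjusted p = 0.0264, adjusted p = 0.115 without mice 5 and 6), while Parp9 (log2 fold change -0.91 ± 0.12, adjusted p = 2.15e-04) and Irgm1 (log2 fold change -0.66 ± 0.11, adjusted p = 7.80e-04) were among those that fell. Of 26 regulators of the STAT3 and NF-kB responses 1 rose and 3 fell. Il6st, the shared receptor chain for interleukin 6, stood at 22.9, 22.6, 20.6 and 20.3 TPM in the controls and 12.6, 12.4, 8.22 and 9.31 TPM in the Cd mice and fell without overlap (log2 fold change -0.98 ± 0.15 (SE), adjusted p = 5.33e-04, -0.76 after centring). Nfkbia, the NF-kB inhibitor induced by NF-kB, rose (log2 fold change 0.53 ± 0.17, adjusted p = 0.0268), and Bcl3, a nuclear member of that family, fell (log2 fold change -0.83 ± 0.20, adjusted p = 0.00566). Among 26 antigen presentation genes B2m (log2 fold change 0.36 ± 0.11, adjusted p = 0.0226), H2-K1 (log2 fold change 0.40 ± 0.11, adjusted p = 0.0118) and H2-Q10 (log2 fold change 0.42 ± 0.11, adjusted p = 0.0105) rose and Erap1, a peptide-trimming enzyme, fell (log2 fold change -0.71 ± 0.12, adjusted p = 8.52e-04). The H2 genes resemble one another, so their separate levels are uncertain. With quantile normalization B2m and H2-K1 lost their calls, and B2m also lost its call after the length and GC correction.

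In the list of the integrated stress response led by ATF4, 5 of 24 rose and none fell, with a median of 0.31 as deposited and 0.53 after centring. Ddit3 (CHOP), a factor induced in that response, stood at 7.67, 8.34, 6.70 and 8.44 TPM in the controls and 17.6, 19.7, 14 and 22.7 TPM in the Cd mice. The groups did not overlap (log2 fold change 1.14 ± 0.21 (SE), adjusted p = 0.00138, 1.36 after centring). A second entry under the name Ddit3 was listed at 0 in every control and Cd liver and was not tested. Gdf15, a secreted stress cytokine, rose from 1.70 ± 0.96 to 7.34 ± 4.76 TPM (mean ± SD, n = 4, log2 fold change 1.53 ± 0.39, adjusted p = 0.00874), mostly in Cd mouse 5 at 13.8 TPM. Once Cd mice 5 and 6 were dropped, its adjusted p was 0.148. Trib3, a pseudokinase (log2 fold change 0.79 ± 0.19, adjusted p = 0.00666), Nupr1, a stress-induced nuclear protein (log2 fold change 1.25 ± 0.40, adjusted p = 0.0275, adjusted p = 0.0657 without mice 5 and 6), and Atf4 itself also rose.

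Among 35 genes of endoplasmic reticulum chaperones and the unfolded protein response, 4 rose and 3 fell. Sdf2l1, a chaperone cofactor, read 10.2, 9.52, 8.0 and 8.92 TPM in the controls and 22.3, 17.1, 17.4 and 26.1 TPM in the Cd mice and did not overlap (log2 fold change 1.08 ± 0.23 (SE), adjusted p = 0.00286, 1.3 after centring). Calr, Syvn1 and Ddit3, which the ATF4 list also counts, rose, and Atf6b, Canx and Ero1a fell. Heat shock genes of the cytosol and mitochondria had 7 of 33 members lower (21.2%), near the background share, none higher, and a median of -0.37 as deposited and -0.15 after centring. Hspd1, the mitochondrial chaperonin, stood at 252, 223, 265 and 233 TPM in the controls and 160.5, 140, 106 and 164 TPM in the Cd mice. All Cd mice were below all controls (log2 fold change -0.78 ± 0.13 (SE), adjusted p = 7.48e-04, -0.56 after centring). Hspa9, Trap1 and Dnaja3, which also act in mitochondria, and Dnajb6, Dnaja2 and Hspa14 fell too.

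Apoptosis and necroptosis genes gave calls in both directions, at shares near the background. Of 40 tested 3 rose (7.5%) and 6 fell (15%), against 4.95% and 16.8% of all protein-coding genes. Of 21 p53 targets 3 rose (14.3%) and 1 fell (4.76%). Bax, a pro-apoptotic pore former, read 18.8, 16.8, 14.8 and 16.5 TPM in the controls and 32.4, 35.6, 22.8 and 27.3 TPM in the Cd mice and rose (log2 fold change 0.77 ± 0.20 (SE), adjusted p = 0.00821, 0.99 after centring). Its relative Bak1, which acts in the same step, read 6.78, 4.90, 5.74 and 6.21 TPM in the controls and 2.45, 2.38, 2.12 and 3.11 TPM in the Cd mice and fell (log2 fold change -0.97 ± 0.12 (SE), adjusted p = 1.44e-04, -0.75 after centring). Neither gene overlapped between the groups. Bbc3, an activator of both (log2 fold change 0.68 ± 0.25, adjusted p = 0.0495), rose, and the inhibitor Xiap (log2 fold change -0.68 ± 0.15, adjusted p = 0.00399) and the protective Bcl2l2 (log2 fold change -0.69 ± 0.16, adjusted p = 0.00456) fell. Casp8, Fadd and Parp1 were the other members that fell.

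Growth and early response genes gave few calls. Btg1, an anti-proliferative gene, rose (log2 fold change 0.84 ± 0.21, adjusted p = 0.00749), while Gadd45a, a growth arrest gene, fell (log2 fold change -0.99 ± 0.28, adjusted p = 0.016, adjusted p = 0.104 without mice 5 and 6). Of 27 proliferation genes none rose and 3 fell, namely Ccnd1 (cyclin D1, log2 fold change -1.48 ± 0.38, adjusted p = 0.00933, adjusted p = 0.0999 without mice 5 and 6), Rrm2 (a ribonucleotide reductase subunit, log2 fold change -1.15 ± 0.33, adjusted p = 0.016, adjusted p = 0.122 without mice 5 and 6) and Cdt1 (a replication licensing factor, log2 fold change -0.75 ± 0.20, adjusted p = 0.01, adjusted p = 0.105 without mice 5 and 6). Without Cd mice 5 and 6 none of the 27 fell. Of 25 immediate early genes Maff (log2 fold change 0.98 ± 0.36, adjusted p = 0.0473, adjusted p = 0.168 without mice 5 and 6) and Nr4a1 rose. Nr4a1 read 0.29, 1.64, 1.61 and 1.55 TPM in the controls and 2.46, 2.60, 19.7 and 8.42 TPM in the Cd mice, so its rise lay chiefly in Cd mice 5 and 6 (adjusted p = 0.0366, and 0.436 without them).

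The transcript of the first enzyme of bile acid synthesis was lower in Cd. Cyp7a1, which sets the rate of the classical pathway, stood at 97.3, 92.8, 135 and 70.9 TPM in the controls and 14.1, 29.4, 16.7 and 8.37 TPM in the Cd mice. The controls lay 5.77-fold higher by mean and no mouse overlapped (log2 fold change -2.55 ± 0.30 (SE), adjusted p = 9.30e-05, -2.33 after centring). Of 30 bile acid genes 7 fell (23.3%) and 1 rose (3.33%), with a median of -0.35 as deposited and -0.13 after centring. Nr1h4 (FXR), the bile acid receptor, fell from 119 ± 13.4 to 65.0 ± 8.30 TPM (mean ± SD, n = 4, log2 fold change -0.86 ± 0.14, adjusted p = 7.18e-04). Nr0b2 (SHP), a repressor induced by FXR, rose from 14.5 ± 4.52 to 22.1 ± 4.25 TPM (log2 fold change 0.60 ± 0.22, adjusted p = 0.0477, adjusted p = 0.144 without mice 5 and 6). The uptake carriers Slc10a1 (log2 fold change -0.66 ± 0.15, adjusted p = 0.00387) and Slco1b2 (log2 fold change -0.83 ± 0.15, adjusted p = 0.00116) fell, as did Klb, the co-receptor for FGF15, Hsd17b4 and Scp2. With Cd mice 5 and 6 left out the adjusted p of Klb was 0.174, and 5 of the 30 genes fell.

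Of 30 genes of cholesterol synthesis and LDL uptake 2 rose and 1 fell, with a median of 0.20 as deposited and 0.42 after centring, against -0.20 and 0.02 over all protein-coding genes. Insig1, which holds SREBP in the endoplasmic reticulum and is itself a SREBP target, read 50.1, 68.4, 49.5 and 61.2 TPM in the controls and 216, 289, 196 and 140.4 TPM in the Cd mice. It rose 3.68-fold by mean without overlap (log2 fold change 1.83 ± 0.32 (SE), adjusted p = 9.85e-04, 2.05 after centring). Mvd, an enzyme of the mevalonate pathway, stood at 3.70, 1.51, 1.94 and 0.51 TPM in the controls and 6.70, 14.1, 5.54 and 3.72 TPM in the Cd mice (log2 fold change 1.52 ± 0.51, adjusted p = 0.0319). Lipogenesis gave 1 call in 31, for Dgat2, which makes triglyceride (log2 fold change -0.83 ± 0.13 (SE), adjusted p = 4.05e-04, -0.61 after centring). Scd1, the stearoyl-CoA desaturase, did not pass (log2 fold change -0.70 ± 0.44, adjusted p = 0.242).

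Of 48 genes of fatty acid oxidation and ketogenesis 10 fell (20.8%, near the background share) and none rose, with a median of -0.48 as deposited and -0.26 after centring, the lowest of the hepatocyte metabolic lists. Ppara, the nuclear receptor that drives these genes, read 34.7, 45.2, 45.3 and 39.5 TPM in the controls and 19.7, 18.4, 18 and 15.7 TPM in the Cd mice. All Cd mice lay below all controls (log2 fold change -1.15 ± 0.18 (SE), adjusted p = 4.79e-04, -0.93 after centring). Cpt1a (log2 fold change -0.79 ± 0.16, adjusted p = 0.0021) and Cpt2 (log2 fold change -0.89 ± 0.18, adjusted p = 0.00246), which carry fatty acids into mitochondria, fell. Acsl1, which activates them, fell from 241 ± 45.7 to 112 ± 8.69 TPM (mean ± SD, n = 4, log2 fold change -1.09 ± 0.18, adjusted p = 7.46e-04). Hadha and Hadhb, both subunits of the trifunctional protein, Hadh, Acad11, Acot4 and the fasting factor Creb3l3 (log2 fold change -0.98 ± 0.13, adjusted p = 2.34e-04) fell as well. Cyp4a14, a PPARα target, averaged 128 ± 93.2 TPM in the controls and 12.9 ± 4.47 TPM in the Cd mice and did not pass (log2 fold change -3.01 ± 1.24, adjusted p = 0.0754).

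Lipoprotein genes divided evenly, with 5 of 27 higher and 5 lower. Apoa5, an activator of lipoprotein lipase, stood at 1386, 1484, 1361 and 1147 TPM in the controls and 725, 667, 423 and 671 TPM in the Cd mice. It fell without overlap (log2 fold change -1.14 ± 0.16 (SE), adjusted p = 2.32e-04, -0.92 after centring). Abca1, a cholesterol exporter (log2 fold change -0.98 ± 0.15, adjusted p = 4.14e-04), Apom (log2 fold change -0.92 ± 0.28, adjusted p = 0.0222, adjusted p = 0.14 without mice 5 and 6), Mttp, which loads lipid onto nascent lipoproteins, and Lipc, the hepatic lipase, fell too. Lpl, the lipoprotein lipase, stood at 4.24, 5.20, 3.95 and 4.79 TPM in the controls and 13.3, 9.20, 7.94 and 8.85 TPM in the Cd mice and rose (log2 fold change 0.95 ± 0.18 (SE), adjusted p = 0.00154, 1.17 after centring). The small apolipoproteins Apoa2, Apoc1, Apoc3 and Apoc4 rose. The even division did not hold in other fits. The list gave 2 rises and 7 falls after the length and GC correction, and 3 rises and 6 falls with quantile normalization.

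In carbohydrate metabolism 9 of 44 genes fell (20.45%) and 3 rose (6.82%), near the background shares. Ppp1r3b, which brings protein phosphatase 1 to glycogen in liver, read 138, 115, 182 and 98.6 TPM in the controls and 48.0, 54.5, 35.3 and 42.0 TPM in the Cd mice. Its relative Ppp1r3g, of the same kind, read 0.88, 4.30, 1.39 and 0.64 TPM in the controls and 11.3, 12.4, 25.4 and 8.15 TPM in the Cd mice. Both pairs of groups were apart, in opposite directions (Ppp1r3b log2 fold change -1.53 ± 0.36 (SE), adjusted p = 0.00508, -1.31 after centring, Ppp1r3g log2 fold change 2.50 ± 0.62 (SE), adjusted p = 0.00723, 2.72 after centring). In the fit lacking Cd mice 5 and 6 the adjusted p was 0.0639 and 0.0548. The glycolytic enzymes Pgk1 (log2 fold change -0.87 ± 0.13, adjusted p = 3.59e-04), Eno1 and Tpi1, the gluconeogenic enzymes Pcx and Fbp1, the glucose-6-phosphate carrier Slc37a4 and the insulin receptor Insr fell. Gckr, a regulator of glucokinase, and Phkg2, a phosphorylase kinase subunit, rose.

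Transcripts of nitrogen disposal were lower at its entry step. Cps1, which commits ammonia to the urea cycle, stood at 746, 842, 848 and 859.6 TPM in the controls and 354, 342, 228 and 377 TPM in the Cd mice. Every Cd mouse lay far below every control (log2 fold change -1.36 ± 0.18 (SE), adjusted p = 1.69e-04, -1.14 after centring). Of 21 genes of the urea cycle and glutamine metabolism 5 fell (23.8%) and 1 rose (4.76%). Slc25a13, the mitochondrial aspartate carrier (log2 fold change -0.93 ± 0.13, adjusted p = 3.26e-04), Nags, which makes the activator of Cps1, and the proline-degrading enzymes Prodh (log2 fold change -0.81 ± 0.15, adjusted p = 0.00121) and Aldh4a1 (log2 fold change -0.64 ± 0.12, adjusted p = 0.00126) fell. Ass1, a later urea cycle enzyme, did not pass (log2 fold change -0.38 ± 0.18, adjusted p = 0.113). Rhbg, an ammonia carrier, rose (log2 fold change 0.63 ± 0.19, adjusted p = 0.023).

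Amino acid breakdown gave 6 falls and 1 rise among 50 genes, below the background share of falls. Dbt and Dld, subunits of the branched-chain ketoacid dehydrogenase complex, Aass, which starts lysine breakdown, and Mmut and Pccb, of propionate disposal, fell (Dbt log2 fold change -0.80 ± 0.12, adjusted p = 3.36e-04). In the methionine list 3 of 32 fell and 2 rose. Mat1a, which makes S-adenosylmethionine, read 1082, 964, 1137 and 889.6 TPM in the controls and 553, 516, 456 and 607 TPM in the Cd mice. All Cd mice were lower (log2 fold change -0.93 ± 0.19 (SE), adjusted p = 0.00259, -0.71 after centring). Ethe1, a sulfur dioxygenase, rose from 10.8 ± 0.91 to 18.1 ± 2.83 TPM (mean ± SD, n = 4, log2 fold change 0.68 ± 0.16, adjusted p = 0.00495).

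Drug-metabolizing families held several falls near the background share. Of 29 tested cytochrome P450 genes 6 fell and 1 rose, and the most abundant, Cyp2e1, stood at 4096, 4455, 4845 and 4274 TPM in the controls and 3957, 3180, 3311 and 3247 TPM in the Cd mice without passing the test (log2 fold change -0.37 ± 0.19, adjusted p = 0.141). Cyp2c29 (log2 fold change -0.79 ± 0.15, adjusted p = 0.00145), Cyp2f2 (log2 fold change -0.86 ± 0.16, adjusted p = 0.00147) and Cyp3a13 (log2 fold change -0.95 ± 0.22, adjusted p = 0.0051) fell. Of 24 conjugating enzymes 5 fell and 1 rose, with Ugt2b38 lowest (log2 fold change -1.38 ± 0.31, adjusted p = 0.00417). Of 12 carboxylesterases 3 fell, among them Ces1d, with 501, 671, 791 and 545 TPM in the controls and 327, 292, 294 and 288 TPM in the Cd mice (log2 fold change -1.04 ± 0.19 (SE), adjusted p = 0.00106, -0.82 after centring). These are duplicated families, and reads may be shared between copies.

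Periportal hepatocyte markers summed to 48500 to 67410 TPM in the controls and 26910 to 47280 TPM in the Cd mice, with 3 of 15 lower. Pericentral markers summed to 6731 to 7652 TPM and 5581 to 6485 TPM, with 1 lower and 2 higher of 15. No difference between the zones was tested. Alb (albumin), which dominates the periportal and hepatocyte sums, read 54260, 50760, 61470 and 41800 TPM in the controls and 41900, 40770, 22130 and 28040 TPM in the Cd mice and did not pass (log2 fold change -0.68 ± 0.26, adjusted p = 0.056). Of 14 general hepatocyte markers Hnf4a and Cps1 fell and none rose. Sinusoidal endothelial markers gave 2 falls and 1 rise among 20, and stellate markers 1 of each among 13. Markers of erythroid cells, B cells, T and NK cells, cholangiocytes and pancreatic acinar cells gave no call in either direction, although only 1 to 6 genes of each list reached the TPM minimum, and Fabp4 rose as 1 of 2 adipocyte and mesothelial markers.

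Hepatocyte transcription factors and nuclear receptors, listed together, fell often. Of 47 tested 14 fell and 2 rose (29.8% fell), although the list median after centring was 0.04, so the fall lay in particular members. Onecut1 (HNF6) stood at 19.4, 15.4, 14.6 and 20.6 TPM in the controls and 3.17, 5.32, 1.04 and 1.70 TPM in the Cd mice. All Cd mice were below 6 TPM and all controls above 14 TPM (log2 fold change -2.40 ± 0.77 (SE), adjusted p = 0.027, -2.18 after centring). The spread among Cd mice was wide, and without Cd mice 5 and 6 its adjusted p was 0.215. Prox1, a homeobox factor of hepatocytes, fell from 25.4 ± 4.21 to 9.89 ± 2.62 TPM (mean ± SD, n = 4, log2 fold change -1.3 ± 0.19, adjusted p = 3.27e-04). Hnf4a, the central hepatocyte factor, fell from 152 ± 11 to 86.6 ± 11.4 TPM (log2 fold change -0.81 ± 0.16, adjusted p = 0.00173). Rxra, the shared partner of many nuclear receptors, Nr3c1, the glucocorticoid receptor, Thrb, a thyroid hormone receptor, Esrra, Foxa3, Zhx2, Arnt, Hlf, Ppara and Nr1h4 fell as well. Klf15, a fasting-related factor, and Nr0b2 rose. Once Cd mice 5 and 6 were dropped, 14 of the 47 fell, though not the same 14, since Onecut1 lost its call.

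Clock genes showed a marked change in 1 repressor. Nr1d1 (REV-ERBα), which represses the clock's activators, read 7.32, 15.7, 9.64 and 13.8 TPM in the controls and 56.2, 44, 24.7 and 29 TPM in the Cd mice. It rose 3.32-fold by mean without overlap (log2 fold change 1.63 ± 0.31 (SE), adjusted p = 0.00145, 1.85 after centring). Of 21 clock genes 5 fell and 1 rose. Wee1, a clock-controlled kinase, fell from 10.4 ± 1.58 to 3.83 ± 0.69 TPM (mean ± SD, n = 4, log2 fold change -1.24 ± 0.19, adjusted p = 4.95e-04), and Tsku fell from 78.9 ± 16.6 to 26.3 ± 8.65 TPM (log2 fold change -1.57 ± 0.48, adjusted p = 0.0221, adjusted p = 0.0657 without mice 5 and 6). Hlf and Usp2 fell as well. The hour of tissue collection is not given in the sources used here, so collection time and treatment cannot be told apart for these genes.

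**Figure D4:**
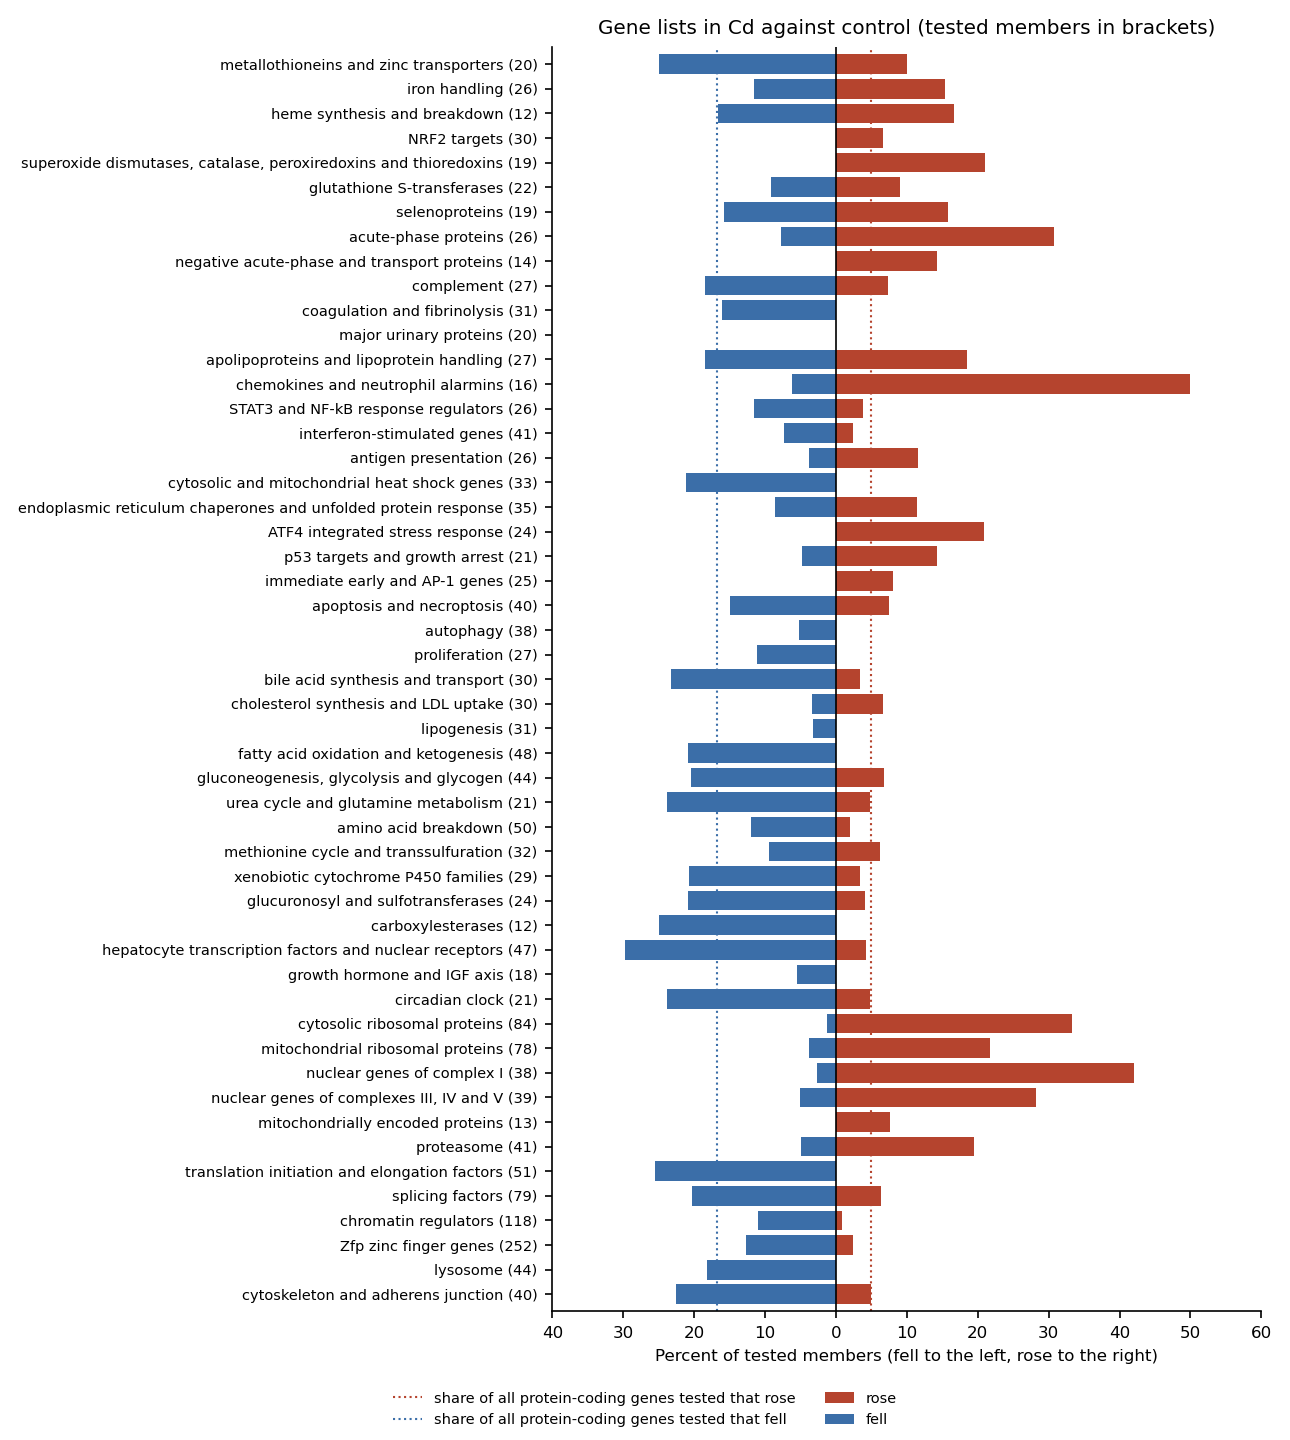
Share of tested members of each gene list (%) that rose (red, right) or fell (blue, left) in Cd, with the number tested in brackets and dotted lines at the shares over all protein-coding genes, 4.95% and 16.8%. Complex I, ribosomal and acute-phase genes reach far to the right, as do chemokines, of which low members could pass the TPM minimum through the Cd livers alone. Hepatocyte transcription factors and nuclear receptors reach furthest to the left.

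Of 84 cytosolic ribosomal protein genes 28 rose (33.3% against 4.95% of all protein-coding genes) and 1 fell, with a median of 0.32 as deposited and 0.54 after centring, and after centring alone 69 were higher. Rps20, of the small subunit, stood at 102, 70.7, 81.8 and 78.2 TPM in the controls and 244, 192, 179.9 and 154 TPM in the Cd mice. The groups did not overlap (log2 fold change 1.20 ± 0.17 (SE), adjusted p = 3.27e-04, 1.42 after centring). Rpl31, of the large subunit, read 174, 103, 124 and 98.2 TPM in the controls and 312, 241, 203 and 184 TPM in the Cd mice and did not overlap either (log2 fold change 0.92 ± 0.20 (SE), adjusted p = 0.00351, 1.14 after centring). The genome holds many processed copies of these genes, so their levels are uncertain.

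Among nuclear genes of the respiratory chain, 16 of 38 in complex I rose (42.1%) and 1 fell. In complexes III, IV and V 11 of 39 rose (28.2%) and 2 fell. Ndufab1, the acyl carrier subunit of complex I, read 78.9, 48.8, 72.7 and 81.6 TPM in the controls and 155, 109, 114 and 108 TPM in the Cd mice (log2 fold change 0.79 ± 0.15 (SE), adjusted p = 0.00165, 1.01 after centring). Uqcrq, of complex III, read 319, 251, 262 and 268 TPM in the controls and 511, 543, 449.8 and 368 TPM in the Cd mice (log2 fold change 0.76 ± 0.13 (SE), adjusted p = 7.18e-04, 0.98 after centring). Ndufv1 (log2 fold change -0.48 ± 0.11, adjusted p = 0.00417) and Atp5a1 (log2 fold change -0.57 ± 0.11, adjusted p = 0.00164), subunits of complex I and of ATP synthase, fell. Mitochondrial ribosomal proteins gave 17 rises and 3 falls among 78, and the proteasome 8 rises and 2 falls among 41, with core subunits such as Psma3 (log2 fold change 0.66 ± 0.15, adjusted p = 0.0049) up and Psmd2, of the regulatory particle (log2 fold change -0.47 ± 0.11, adjusted p = 0.00604, adjusted p = 0.0539 without mice 5 and 6), down. Of the 13 mitochondrially encoded genes mt-Co3 rose (log2 fold change 0.85 ± 0.30, adjusted p = 0.0424, adjusted p = 0.186 without mice 5 and 6), while the list gave no rise and 3 falls without Cd mice 5 and 6, which had the highest mitochondrial shares, and no rise and 4 falls after a correction for length and GC content. The gene mt-Atp8, which shares bases with its neighbour mt-Atp6, read 74690, 81800, 81080 and 80830 TPM in the controls and 52190, 46910, 93320 and 80610 TPM in the Cd mice.

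These lists held shorter transcripts than the whole, and length moved with the change. Median transcript length was 1100 bases for cytosolic ribosomal proteins, 1026 bases for complex I, 932 bases for complexes III, IV and V, 1866 bases for mitochondrial ribosomal proteins and 1907 bases for the proteasome, against 3270 bases over all protein-coding genes with a length. In the shortest of 5 equal length groups 10.9% of genes rose and 5.77% fell, and in the longest 2.25% rose and 23.9% fell. Change against length gave rank correlations of -0.20 to -0.32 in the Cd libraries and of -0.15 to 0.25 in the controls, each control set against the other 3. After a correction for length and GC content 11 cytosolic ribosomal genes rose and 2 fell, complex I gave 5 and 5, complexes III, IV and V gave 5 and 6, and mitochondrial ribosomal proteins gave 11 and 13. The proteasome gave 3 rises and 9 falls under that correction. Without Cd mice 5 and 6, cytosolic ribosomal proteins gave 49 rises and complex I 17.

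Of 51 translation initiation and elongation factors 13 fell and none rose (25.5%). Eif2b4, a subunit of the exchange factor that recycles eIF2, read 22.3, 25.9, 23.2 and 22.1 TPM in the controls and 11.8, 11.7, 8.70 and 10.02 TPM in the Cd mice. All Cd mice were below all controls (log2 fold change -1.08 ± 0.19 (SE), adjusted p = 0.0011, -0.86 after centring). Eif2b1, Eif2b2 and Eif2s1, of the same step, fell too (Eif2b1 log2 fold change -0.81 ± 0.15, adjusted p = 0.00127, Eif2s1 log2 fold change -0.74 ± 0.13, adjusted p = 8.29e-04). Of 79 splicing factors 16 fell and 5 rose, with Prpf8, at the heart of the spliceosome, lower in every Cd mouse (24.6, 28.4, 28 and 23.5 TPM in the controls and 12.8, 12.7, 8.77 and 12.7 TPM in the Cd mice, log2 fold change -1.10 ± 0.14 (SE), adjusted p = 1.32e-04, -0.88 after centring). Of 118 chromatin regulators 13 fell and 1 rose (11%), and of 252 Zfp genes 32 fell and 6 rose (12.7%), shares below the background. The corepressor Ncor1 (log2 fold change -0.94 ± 0.16, adjusted p = 8.66e-04) was among the chromatin genes that fell.

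Of 40 cytoskeletal and junction genes 9 fell (22.5%) and 2 rose. Vcl (vinculin) fell from 4.46 ± 0.49 to 1.33 ± 0.48 TPM (mean ± SD, n = 4, log2 fold change -1.25 ± 0.16, adjusted p = 1.69e-04), Ctnnd1, a partner of cadherins, fell (log2 fold change -0.91 ± 0.14, adjusted p = 3.70e-04), and Tmsb10, an actin-binding peptide, rose from 32.2 ± 2.65 to 69.4 ± 10.8 TPM (log2 fold change 1.08 ± 0.20, adjusted p = 0.00151). Of 44 lysosomal genes 8 fell (18.2%) and none rose, with Scarb2, a membrane protein of lysosomes, at 71.6, 70.2, 71.7 and 63.8 TPM in the controls and 45.3, 37.6, 23.5 and 38.0 TPM in the Cd mice (log2 fold change -0.96 ± 0.16 (SE), adjusted p = 7.52e-04, -0.74 after centring). Of 38 autophagy genes 2 fell (5.26%), Ulk2 (log2 fold change -0.64 ± 0.11, adjusted p = 6.76e-04) and Atg16l1 (log2 fold change -0.65 ± 0.16, adjusted p = 0.00731, adjusted p = 0.0875 without mice 5 and 6). In the growth hormone and IGF axis 1 of 18 fell, Igfbp4, a binding protein for IGF (log2 fold change -0.76 ± 0.13, adjusted p = 6.67e-04).

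Several genes outside the lists were among those that moved furthest. Those named here and in the next paragraph were picked only among genes whose groups did not overlap, so their separation is not a result. Depp1, a FOXO target, stood at 12.6, 14.2, 10.4 and 9.88 TPM in the controls and 84.8, 115, 95.3 and 44.4 TPM in the Cd mice. The groups did not overlap, and Cd mouse 6 was the lowest of the Cd mice (log2 fold change 2.68 ± 0.45 (SE), adjusted p = 7.80e-04, 2.90 after centring). Tspyl2, a nucleosome assembly protein, read 7.47, 5.36, 4.11 and 3.24 TPM in the controls and 18.3, 29.1, 16.9 and 18.4 TPM in the Cd mice (log2 fold change 1.86 ± 0.26 (SE), adjusted p = 2.58e-04, 2.08 after centring). Snhg11 (a small nucleolar RNA host gene that the table lists as protein-coding, log2 fold change 2.20 ± 0.33, adjusted p = 3.70e-04), Bud13 (a splicing-related protein, log2 fold change 1.78 ± 0.30, adjusted p = 8.07e-04) and Pdgfrl (log2 fold change 1.82 ± 0.22, adjusted p = 1.01e-04) rose as well. Pdgfrl was low, at 0.47, 0.27, 0.59 and 0.35 TPM in the controls and 3.70, 5.11, 4.65 and 2.88 TPM in the Cd mice. A gene this low in the controls could pass the TPM minimum through the Cd livers alone, so its place here is not evidence of direction.

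On the falling side, Nrep read 20.6, 27.3, 37.5 and 28.3 TPM in the controls and 4.4, 4.01, 3.58 and 5.09 TPM in the Cd mice. Ece1, the endothelin-converting enzyme, read 77.8, 164, 74.5 and 107 TPM in the controls and 27.2, 28.3, 17.6 and 23.5 TPM in the Cd mice. Both were lower in every Cd mouse (Nrep log2 fold change -2.46 ± 0.59 (SE), adjusted p = 0.00603, -2.24 after centring, Ece1 log2 fold change -2.04 ± 0.43 (SE), adjusted p = 0.00297, -1.82 after centring). A1cf, the cofactor of apolipoprotein B mRNA editing, read 47.0, 63.9, 50.8 and 42.4 TPM in the controls and 14.9, 17.8, 8.41 and 12.3 TPM in the Cd mice (log2 fold change -1.89 ± 0.18 (SE), adjusted p = 2.02e-05, -1.67 after centring). Cyb5d1 (log2 fold change -1.90 ± 0.18, adjusted p = 1.86e-05) and the small GTPase Arf6 (log2 fold change -1.82 ± 0.27, adjusted p = 3.99e-04) fell too, with Cd mouse 5 lowest for A1cf, Cyb5d1 and Arf6.

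**Figure D5:**
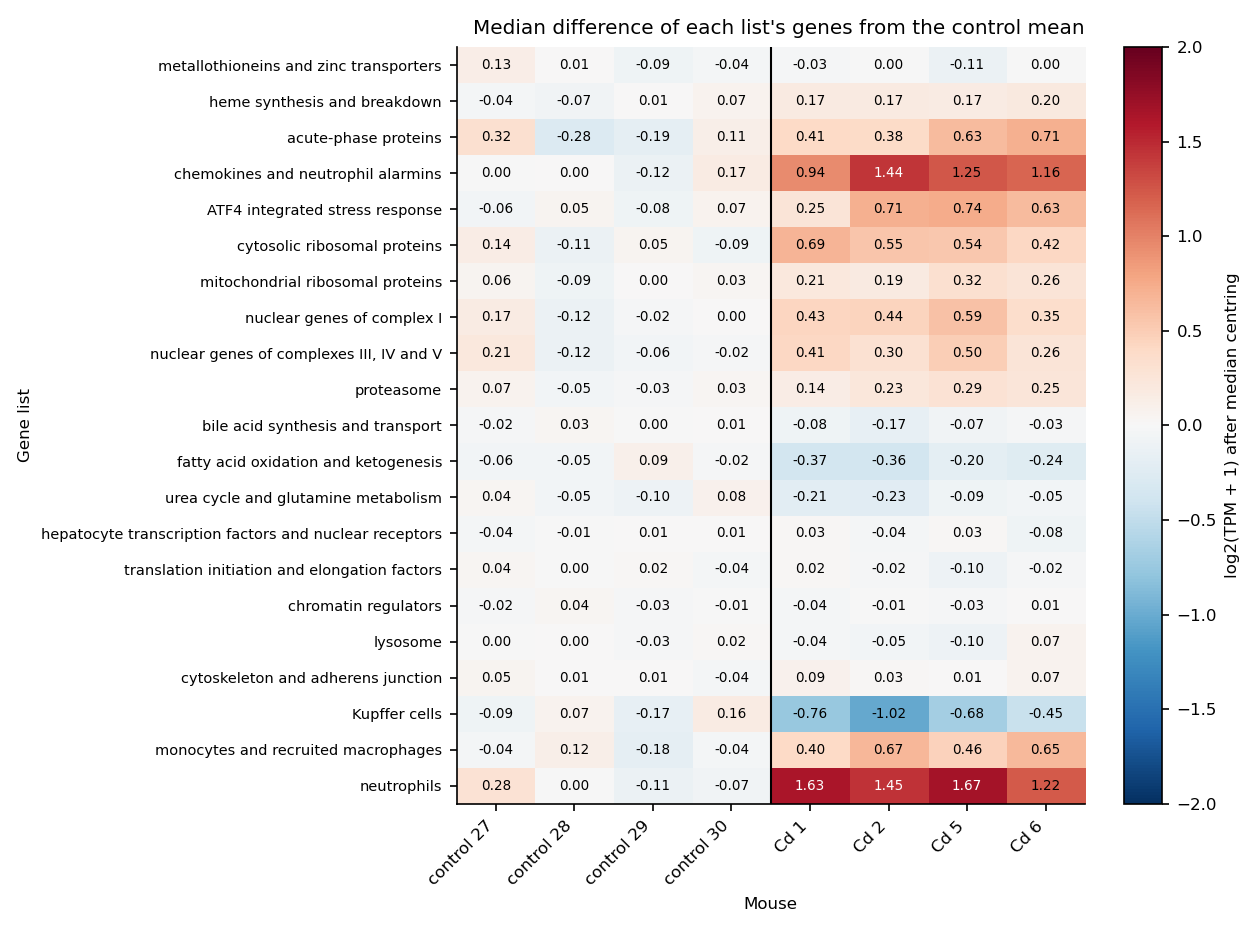
Median difference from the control mean of each list's tested genes in every mouse, on the log2(TPM + 1) scale after median centring. In all 4 Cd mice the neutrophil and chemokine lists lie above 0.9 and the Kupffer cell list below -0.4, while the translation factor, chromatin and lysosome lists stay close to 0. Low neutrophil and chemokine genes could pass the TPM minimum through the Cd livers alone, so the medians of those lists are not evidence of direction.

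Several genes named without the adjusted p from that fit also lost the call as deposited without Cd mice 5 and 6, at adjusted p from 0.0504 (Prdx5) to 0.237 (Itih4). Among those that had risen these were Prdx5, Gpx4, Apcs, Itih4, Serpina3g, Vtn, S100a4, S100a6, Ly6c2, Calr, Syvn1, Klf15, Phkg2 and Fabp4. Among those that had fallen they were Slc39a1, Slc39a7, Selenot, Selenoi, F7, Hspa9, Hspa14, Dnaja3, Canx, Hadhb, Acot4, Mttp, Eno1, Insr and Ces2a.

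The 8 selenomethionine-fed livers gave a second comparison of CdCl2 with no mouse in common. There, 54 protein-coding genes (0.515%) were higher in Cd+Se than in Se both ways and 17 (0.162%) were lower. Of the 519 genes that rose in Cd against control, 24 (4.62%) were among them, which is 44.4% of the 54, and they included Mt1, Mt2, Hmox1, Saa3, Ccl2, Cxcl10, S100a8, S100a9, Lpl and Tmsb10. Of the 1761 that fell, 12 (0.681%) were among the 17, which is 70.6% of them, and they included Cd163, Clec4f, Vsig4, Timd4, Cyp7a1 and Ces2a. None was called in the opposite direction. After centring, 82.3% of the 519 were higher in Cd+Se than in Se, against 49.2% of all protein-coding genes, and 78.0% of the 1761 were lower, against 50.8%. The median change of the 519 was 0.80 in Cd against control and 0.16 in Cd+Se against Se, and that of the 1761 was -0.47 and -0.11.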

How the data were processed

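Whole-liver poly(A) RNA was sequenced from 16 mice in 4 groups of 4. Per the labels the authors used fastp, HISAT2 and StringTie (no versions given) and deposited TPM per gene, normalized so that each library sums to 1000000. The build named in the submitters' processing notes is GRCh38, although the gene identifiers are those of mouse, so the build used is not known. No counts or depths were used, and strand use is not given in the sources used here, so overlapping genes cannot be told apart. The differential test of the study is not named in its methods, and columns of the deposited table that hold annotation only were used for names. No per-sample column was left unmatched (0). Each title names rep1 and rep2 for the 1 column of that mouse, and whether a column merges 2 libraries is not stated.

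The fit took every gene that averaged 1 TPM or more across the 16 livers (11766, of which 10483 protein-coding). log2(TPM + 1) was fitted in limma 3.58.1 (R 4.3.3) with 4 group means, eBayes with trend, and 3 contrasts (Cd minus control, Cd+Se minus Se, and their difference). Adjustment was by Benjamini-Hochberg across the genes in the fit. The fit was repeated after centring each library on its median. Nothing but the mouse numbers in the labels says that the livers are separate animals. On simulated data of 11766 genes the fit recovered 84 of 100 genes changed by log2 1 and 98 of 100 changed by log2 2 in Cd against control, and called 3 unchanged genes. Named genes were Mt1, Mt2 and Hmox1, the 12 that rose and the 12 that fell most without overlap, up to 4 per list, and abundant markers. For the 12 that rose and the 12 that fell most, groups without overlap were a condition of being named and are not a result. A few genes that this rule named are not reported here. There were 51 gene lists and 14 marker lists. The members and lists were chosen with earlier results of these data known. Other genes named without being in that rule were chosen after their values were seen. Alternatives covered scaling (median centring, quantile, TPM rescaled over nuclear protein-coding genes), a loess correction for transcript length and GC content (span 0.5, GENCODE M21), a pseudocount of 0.1, no TPM minimum or one of 5, fewer groups, eBayes without trend, protein-coding genes only, a log2 change of at least 1, each mouse left out, and, chosen after seeing the data, Cd mice 5 and 6 left out.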

Additional observations from a re-analysis of the deposited data

Results flagged for a closer look

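In a group of 4 mice, a mouse stood apart where its gap to the nearest other mouse exceeded Dixon's critical value as a share of the group's range. This held in 23 of 409 groups of named genes, and about 1 in 20, or 20.4, is the number that chance gives. Control mouse 27 stood apart 9 times. It was the highest control for Slc39a14 at 95.7 TPM against 79.6 to 82.1 TPM (ratio 0.843), Sod2 at 93.2 TPM against 68.1 to 70.2 TPM (ratio 0.916), Saa2 at 3310 TPM against 35.2 to 355 TPM (ratio 0.902), Rpl22l1 at 172 TPM against 62.5 to 72.6 TPM (ratio 0.907) and Ndufb1 at 45.8 TPM against 34.0 to 35.1 TPM (ratio 0.911). It was the lowest for Cxcl13 at 2.22 TPM against 3.64 to 3.90 TPM (ratio 0.845), Nr4a1 at 0.29 TPM against 1.55 to 1.64 TPM (ratio 0.933), Cps1 at 746 TPM against 842 to 859.6 TPM (ratio 0.847) and mt-Atp8 at 74690 TPM against 80830 to 81800 TPM (ratio 0.863). Cd mouse 1 was the highest of its group for Sod2 at 113 TPM against 94.7 to 96.6 TPM (ratio 0.895), Ces1d at 327 TPM against 288 to 294 TPM (ratio 0.851), Ndufab1 at 155 TPM against 108 to 114 TPM (ratio 0.863) and Cyp2e1 at 3957 TPM against 3180 to 3311 TPM (ratio 0.832), and the lowest for Cxcl1 at 38.1 TPM against 44.9 to 45.4 TPM (ratio 0.930). Cd mouse 2 was the highest of its group for Tspyl2 at 29.1 TPM against 16.9 to 18.4 TPM (ratio 0.873). Cd mouse 5 was the highest of its group for Mgst1 at 6515 TPM against 5949 to 6044 TPM (ratio 0.832), and the lowest for Prpf8 at 8.77 TPM against 12.7 to 12.8 TPM (ratio 0.965) and Atp6v1a at 5.83 TPM against 8.11 to 8.49 TPM (ratio 0.857). Cd mouse 6 was the highest of its group for Timd4 at 0.22 TPM against 0.11 to 0.12 TPM (ratio 0.909), and the lowest for Prdx5 at 149.8 TPM against 172 to 176 TPM (ratio 0.846). Control mouse 28 was the highest of its group for Abca1 at 34.3 TPM against 27.2 to 28.4 TPM (ratio 0.836), and the lowest for Bcl3 at 9.25 TPM against 14.7 to 15.5 TPM (ratio 0.884). Control mouse 30 was the lowest of its group for Eif2s1 at 13.4 TPM against 18 to 18.6 TPM (ratio 0.887).

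The change with CdCl2 differed between the mice without and with selenomethionine for 12 named genes, by the interaction term of the limma fit as deposited (change in Cd+Se minus Se, less that in Cd minus control). Over all protein-coding genes 106 passed as deposited and 672 after centring. The change was more positive without selenomethionine for Pdgfrl (-1.40, adjusted p = 0.0452, from 1.82 in Cd against control to 0.42 in Cd+Se against Se) and Selenok (-1.20, adjusted p = 0.0343, from 1.24 in Cd against control to 0.04 in Cd+Se against Se). It was more negative without it for Cyb5d1 (1.58, adjusted p = 0.0176, from -1.90 in Cd against control to -0.32 in Cd+Se against Se), A1cf (1.62, adjusted p = 0.0176, from -1.89 in Cd against control to -0.27 in Cd+Se against Se), Arf6 (1.79, adjusted p = 0.0434, from -1.82 in Cd against control to -0.04 in Cd+Se against Se), Steap4 (1.91, adjusted p = 0.0176, from -1.01 in Cd against control to 0.90 in Cd+Se against Se) and Apoa5 (1.04, adjusted p = 0.0411, from -1.14 in Cd against control to -0.10 in Cd+Se against Se). The same held for Abca1 (0.99, adjusted p = 0.0415, from -0.98 in Cd against control to 0.01 in Cd+Se against Se), Il6st (0.99, adjusted p = 0.0453, from -0.98 in Cd against control to 0.01 in Cd+Se against Se), Prox1 (1.18, adjusted p = 0.0469, from -1.30 in Cd against control to -0.12 in Cd+Se against Se), Asxl2 (0.83, adjusted p = 0.0343, from -0.80 in Cd against control to 0.04 in Cd+Se against Se) and Tpm3 (0.89, adjusted p = 0.0464, from -0.97 in Cd against control to -0.07 in Cd+Se against Se). Named genes were chosen largely for their change in Cd against control.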

How the results depend on the processing

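The counts of genes moved with the scaling, the fold threshold and Cd mice 5 and 6. For genes higher in Cd, 519 became 1881 with median centring, 1397 with quantile normalization and 71 at a log2 fold change of at least 1. For genes lower in Cd, 2858 became 1761 with median centring, 1227 without Cd mice 5 and 6, and 210 at a log2 fold change of at least 1. Of the genes called in both scalings, the 519 that rose became 71 and the 1761 that fell became 78 at that fold change, and the falls became 1106 without Cd mice 5 and 6. Leaving out each mouse in turn gave 324 to 541 genes higher and 1944 to 3133 lower as deposited, and 324 to 541 and 1349 to 1730 in both scalings. The lowest counts of rises, 324, 324 and 334, came without control mouse 28, Cd mouse 2 and control mouse 29. All other alternatives gave counts within 1.5 times of these.

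Of 183 named genes called as deposited, none changed sign under any alternative, and 120 kept the call in every one. Without Cd mice 5 and 6, 46 lost the call, 30 lost it with no TPM minimum and 20 after the length and GC correction. The cause of these losses was not tested. Of the 22 named genes without a call, 10 changed sign somewhere. Cela1 (0.054 as deposited) read -0.018 without Cd mice 5 and 6, -0.15 with the length and GC correction and -0.041 to 0.13 with each mouse left out in turn. Lyz2 (-0.053 as deposited) read 0.015 without Cd mice 5 and 6, 0.17 with centring, 0.069 with quantile normalization and -0.13 to 0.066 with each mouse left out in turn. Msln (-0.082 as deposited) read 0.14 with centring and -0.31 to 0.19 with each mouse left out in turn. Fabp1 (-0.046 as deposited) read 0.18 without Cd mice 5 and 6, 0.17 with centring and -0.18 to 0.033 with each mouse left out in turn. Hba-a2 (-0.20 as deposited) read 0.019 with centring and -0.45 to 0.016 with each mouse left out in turn. Hbb-bs (-0.006 as deposited) read 0.21 with centring, 0.033 with rescaled TPM and -0.26 to 0.25 with each mouse left out in turn. Spp1 (0.088 as deposited) read -0.031 with the length and GC correction and -0.028 to 0.25 with each mouse left out in turn. Dcn (-0.17 as deposited) read 0.054 with centring. Ecm1 (-0.22 as deposited) read 0.001 with centring. mt-Atp8 (-0.28 as deposited) read 0.000 with quantile normalization. The last of these, mt-Atp8, gained a call without Cd mice 5 and 6 (-0.69, adjusted p = 0.00786) and with the length and GC correction (-0.87, adjusted p = 0.00174). No paired analysis was possible because the groups share no mouse numbers. Read depth is unknown, so low genes such as Ccl2, Retnlg or Timd4 carry an unknown counting error.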
